A study of Mus musculus with 8 samples.

Results

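In cultured mouse preadipocytes and the adipocytes formed from them, 8 genes of cholesterol synthesis were followed across 12 cell clusters, and 7 of them were among the 3903 gene symbols listed as cluster markers. Cholesterol is made from acetyl-CoA by a chain of enzymes, and 7 of the 8 genes encode steps of that chain. Hmgcs1 (3-hydroxy-3-methylglutaryl-CoA synthase) acts early and feeds the mevalonate branch. Idi1 (isopentenyl-diphosphate isomerase) and Fdps (farnesyl diphosphate synthase) act on the isoprenoid units, which also serve protein prenylation. Fdft1 (squalene synthase) makes the first intermediate committed to sterols, and Sqle (squalene epoxidase), Lss (lanosterol synthase) and Cyp51 (lanosterol demethylase) act in turn after it. Insig1 encodes no enzyme. Its protein holds the SREBP transcription factors, the activators of these genes, in the endoplasmic reticulum when sterols are plentiful. None of the 8 genes encodes a lipoprotein receptor, so genes of cholesterol uptake are described with the wider pathway.

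The cells were preadipocytes isolated from the inguinal white fat of C57BL/6 mice that were 8 to 12 weeks old, either wild type (WT) or carrying the genotype Hmgn1-/- and Hmgn2-/- (double knockout, DKO). The knockout mice lack the nucleosome-binding proteins HMGN1 and HMGN2. Cells were profiled before induction (day 0) and at day 6 of in vitro browning with insulin, dexamethasone, IBMX, T3 and rosiglitazone, a cocktail that WT and DKO cells both received for 4 days before a change to medium with insulin and T3 only, with 2 samples in each of the groups WT day 0, DKO day 0, WT day 6 and DKO day 6. The values below come from a table of marker genes for 12 cell clusters, numbered 0 to 11, in which the authors set each cluster against all other cells with the 8 samples pooled. The cells were grown on collagen outside the animal, and no value in the table belongs to a single sample, genotype or time point. The loss of Hmgn1 and Hmgn2 transcripts could for that reason not be checked by sample.

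The 8 genes were looked up by symbol in every cluster. Of these, 7 had at least 1 entry and Lss had none. They held 17 of the 13337 entries, and the table had 3903 gene symbols in all. Each entry gives the percentage of cells in which the gene was detected (at least 1 transcript counted), once for the cluster and once for the cells outside it. A gene has an entry for a cluster only where it passed the authors' minimums for fold change and detection, and in every entry the larger of both percentages was at least 10.1%. A missing entry is therefore not a value of 0, and an entry with nearly equal percentages was listed for a difference in mean level that detection does not show. The direction given below is that of detection, not of mean level. The number of cells behind a percentage is unknown, there are no replicates, and no difference below was tested.

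All 8 genes are annotated as protein coding in the mouse genome GRCm38 (mm10). Hmgcs1 and Idi1 lie on chromosome 13, at 119690379 to 119708260 and at 8885501 to 8892451, both on the plus strand. Insig1 lies on chromosome 5 at 28071363 to 28078662 on the plus strand, and Cyp51 on the same chromosome at 4081145 to 4104746 on the minus strand, where it overlaps Akap9 on the opposite strand. Fdps lies on chromosome 3 at 89093588 to 89101959 on the minus strand and shares that strand with the overlapping gene model Gm43738. Strand alone therefore cannot assign reads where both models overlap, and whether this affected the Fdps counts was not tested. Sqle lies on chromosome 15 at 59315077 to 59331192, Lss on chromosome 10 at 76531588 to 76557138, and Fdft1 on chromosome 14 at 63145150 to 63179578 on the minus strand, where it overlaps the oppositely oriented Ctsb.

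Hmgcs1, Idi1 and Insig1 were the members detected in far more cells of cluster 11 than elsewhere, and their promoters are shown for that reason. RefSeq promoter windows (GRCm38.p6, 250 bases before to 50 bases after the start of transcription) were found for 5 of the 8 members, namely Hmgcs1, Idi1, Insig1, Cyp51 and Lss. The windows below are written 5′ to 3′ on the strand of the gene. Capitals mark the motif TCACNCCAC, the core of a sterol response element to which SREBPs bind, and the CCAAT box bound by NF-Y, which reads ATTGG where it lies on the opposite strand.
Hmgcs1, chr13:119690101-119690400, plus strand: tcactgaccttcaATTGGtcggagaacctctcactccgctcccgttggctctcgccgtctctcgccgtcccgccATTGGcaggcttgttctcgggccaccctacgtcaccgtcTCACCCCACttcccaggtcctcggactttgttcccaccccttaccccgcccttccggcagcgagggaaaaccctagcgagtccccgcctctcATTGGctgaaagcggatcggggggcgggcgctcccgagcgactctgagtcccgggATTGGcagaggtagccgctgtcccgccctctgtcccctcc
Idi1, chr13:8885356-8885655, plus strand: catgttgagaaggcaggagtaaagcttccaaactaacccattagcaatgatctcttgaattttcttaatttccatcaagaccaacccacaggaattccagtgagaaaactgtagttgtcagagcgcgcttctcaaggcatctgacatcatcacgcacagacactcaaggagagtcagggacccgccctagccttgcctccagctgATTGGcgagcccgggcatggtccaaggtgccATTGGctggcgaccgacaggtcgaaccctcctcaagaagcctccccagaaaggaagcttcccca
Insig1, chr5:28071162-28071461, plus strand: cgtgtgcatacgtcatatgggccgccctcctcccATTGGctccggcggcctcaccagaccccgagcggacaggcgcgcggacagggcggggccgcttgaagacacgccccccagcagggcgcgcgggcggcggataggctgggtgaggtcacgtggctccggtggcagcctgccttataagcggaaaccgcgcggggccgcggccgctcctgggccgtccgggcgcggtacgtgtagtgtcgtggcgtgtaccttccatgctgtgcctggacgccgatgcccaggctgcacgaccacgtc
The Hmgcs1 window held TCACCCCAC at bases -137 to -129 before the start, and none of the other 4 windows matched TCACNCCAC on either strand. Over 32851 promoter windows, 1.24% held that motif. Other forms of the sterol response element were not searched for, so a window without this match is not shown to lack one. CCAAT was found on either strand in 5 of 5 member windows, beside 37.4% of all windows. Hmgcs1 had 4 such matches, at -237 to -233, -176 to -172, -45 to -41 and 11 to 15, and Idi1 had 2, at -45 to -41 and -14 to -10. GGGCGG, a GC box bound by Sp1, was also in 5 of 5, beside 35.7% of all windows. The E-box CACGTG was only in the Insig1 window among the 5, at -101 to -96, beside 7.15% of all windows. No match overlapped another in these 5 windows, and a match is a run of letters, not a site shown to be bound.

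**Figure D1:**
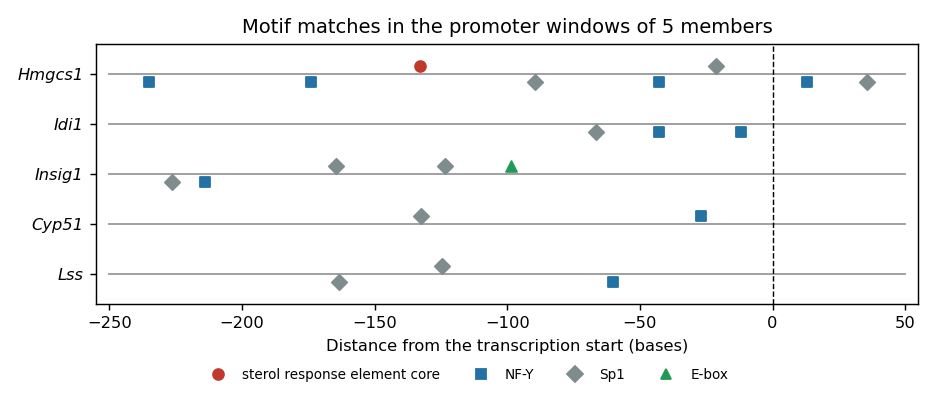
Positions of 4 searched motifs in the promoter windows of 5 members. The x axis is the distance in bases from the start of transcription (dashed line), and marks above a line are on the strand of the gene and marks below it on the opposite strand. The Hmgcs1 window alone carries a match to TCACNCCAC, the only form of the sterol response element core that was searched for. Each of the 5 carries a CCAAT and a GGGCGG match.

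Hmgcs1 had the widest range of detection among the members. It was found in 26.0% of cluster 4 cells and in 97.7% of those of cluster 11, a range of 71.7 percentage points over its 4 entries. The 97.7% of cluster 11 stood against 47.3% of all other cells, a difference of 50.4 points, and 213 of the 2487 entries of that cluster had a difference at least as large. The odds ratio, which is the odds of detection inside the cluster divided by the odds outside it, was 47.3. In cluster 4 the 26.0% stood against 50.5%, a difference of -24.5 points. In cluster 5 it was detected in 46.8% against 48.2%, and in cluster 9 in 53.5% against 47.8%, a difference of 5.7 points. Over all cells, solved from the entries and the shares of the clusters, it was detected in 48.1%, and over the 8 clusters without an entry in 49.7%. Cluster 11 was therefore above, and cluster 4 below, the mean of the clusters without an entry.

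Idi1 was listed only with higher detection. It was found in 53.7% of cluster 2 cells against 36.1% of other cells, in 66.6% of cluster 6 against 35.9%, and in 77.7% of cluster 11 against 37.6%. The differences were 17.6, 30.7 and 40.1 points. Over the 9 clusters without an entry its mean detection was 32.4%. That mean had to lie below the 3 listed values, since each of these was above the detection in other cells. Clusters 2 and 6 are larger than cluster 11, and they held 17.0% and 13.0% of all cells in which Idi1 was detected, while cluster 11 held 3.05%.

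Fdps, which makes farnesyl diphosphate for sterols and for prenylated proteins, had the lowest detection of any member entry. It was detected in 9.20% of cluster 4 cells against 62.0% of other cells, a difference of -52.8 points with an odds ratio of 0.0621. In cluster 8 it was detected in 37.2% against 58.2%, a difference of -21.0 points. In cluster 7 it was detected in 66.5% against 56.3%, and in cluster 6 in 58.6% against 56.8%. Over all cells its detection was 57.0%, the highest of the 7 listed members, and over the 8 clusters without an entry it was 64.1%. Cluster 4 held 1.55% of all cells with Fdps detected, although it made up 9.59% of the cells.

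The enzymes after Fdps each had 1 entry or none. Fdft1 was detected in 26.3% of cluster 11 cells against 29.6% of other cells. This difference of -3.3 points made Fdft1 the 1 member of the 4 listed in cluster 11 that was not detected in more of its cells. Sqle was detected in 54.0% of cluster 7 cells against 39.5%, a difference of 14.5 points. Cyp51 was detected in 68.1% of cluster 0 cells against 51.5%, a difference of 16.6 points, and cluster 0 held 18.1% of the cells in which it was detected. Over all cells Fdft1 was detected in 29.6%, Sqle in 40.5% and Cyp51 in 53.9%. Since each was listed in 1 cluster, these values carry no information on how the other clusters differ among themselves.

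Insig1, the sterol-dependent brake on SREBP processing, followed Hmgcs1 in the direction of its larger differences. It was detected in 82.0% of cluster 11 cells against 32.8%, a difference of 49.2 points with an odds ratio of 9.33. In cluster 4, where 2028 of 2072 entries were lower, it was detected in 17.3% against 35.3%, a difference of -18.0 points. In cluster 9 the values were 33.1% and 33.6%. Over all cells its detection was 33.6%, and over the 9 clusters without an entry it was 34.6%.

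**Figure D2:**
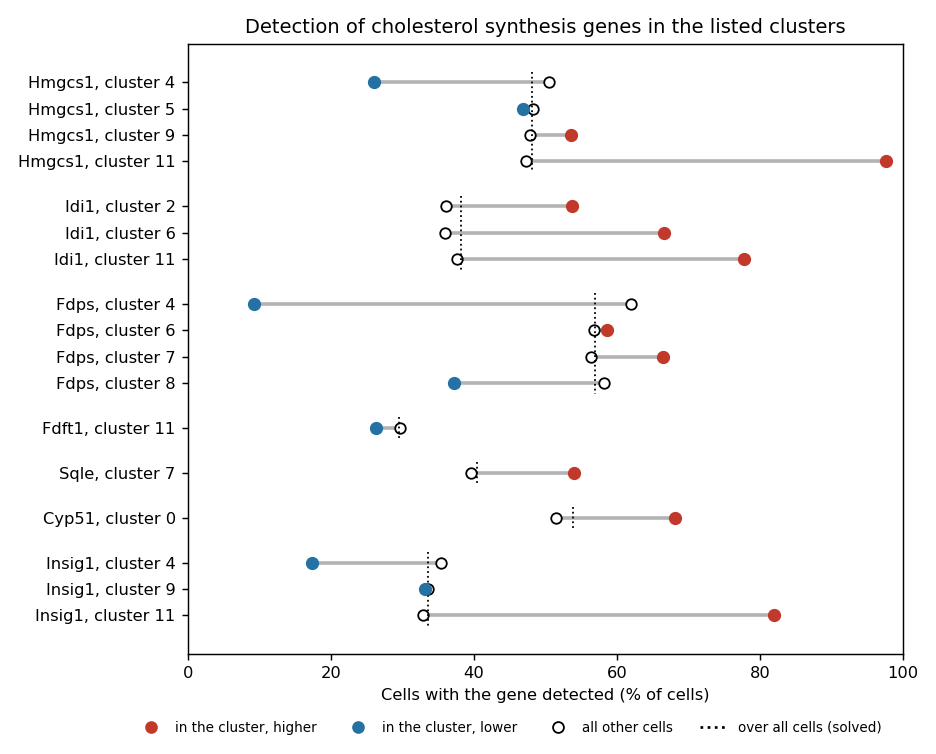
Detection of the 7 listed members in each cluster with an entry. The x axis is the percentage of cells with the gene detected, filled points are the cluster (red higher, blue lower than outside), open points are all other cells, and the dotted line is the solved detection over all cells. Hmgcs1, Idi1 and Insig1 reach 97.7%, 77.7% and 82.0% in cluster 11, and Fdps falls to 9.20% in cluster 4.

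Ordered by detection over all cells, the members ran from Fdps (57.0%) through Cyp51 (53.9%), Hmgcs1 (48.1%), Sqle (40.5%), Idi1 (38.2%) and Insig1 (33.6%) to Fdft1 (29.6%). Inside cluster 11 the order of the 4 listed was Hmgcs1, Insig1, Idi1 and Fdft1. Detection depends on how readily a 3′ library captures a transcript as well as on its level, so these orders are of detection and not of transcript amounts. Whether neighbours in these orders differ beyond the spread between samples is unknown, since the samples were pooled.

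Of the 17 member entries, 10 had higher and 7 lower detection inside the cluster, beside 7201 of all 13337 entries higher (54.0%), so the split was close to that of the whole table. The 2 percentages differed by under 5 points in 4 member entries. They fell in 9 clusters, and clusters 1, 3 and 10 had no member entry. Of the 28 possible pairs of members, 10 pairs met in at least 1 cluster, in 12 instances. The pair differed from other cells in the same direction in 8 of these and in opposite directions in 4. Of the 8, 3 were in cluster 4, where 2028 of 2072 entries were lower and nearly any pair of listed genes shared that direction. The rest were in clusters 6, 7 and 11, where 1057 of 1416, 452 of 540 and 1479 of 2487 entries were higher. Those in cluster 11 paired Hmgcs1, Idi1 and Insig1 with each other. Of the 4 in opposite directions, 3 paired Fdft1 with another member in cluster 11. The last was Hmgcs1 with Insig1 in cluster 9, where Insig1 differed by -0.5 points. The same count over pairs of all genes was not made, so whether members moved together more than other genes is unknown.

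Cluster 11 held 1.5% of all cells, and the genes with its largest differences were Gpat3, an acyltransferase of triglyceride synthesis (93.0% against 5.00%), and Plin1, which coats lipid droplets (99.8% against 14.4%). All 10 adipocyte markers looked up were detected in more of its cells, with a median difference of 72.7 points. Of the 7 listed members, 3 were listed there with higher detection, beside 37.9% of all 3903 symbols, and 1 with lower detection, beside 25.8%. By count alone the members were thus close to the table as a whole. The median difference was 44.7 points over the 4 member entries, 3 of which were higher. Over all 2487 entries of the cluster, which mix 1479 higher with 1007 lower ones, it was 6.60 points. These 2 medians therefore do not compare sizes alone. Differences at least as large as those of Hmgcs1, Insig1 and Idi1 were held by 213, 233 and 488 of the 2487 entries. Cells with more transcripts counted have more genes detected, and whether that had a part in these differences was not tested.

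Cluster 4 held the members' lowest values. Hmgcs1, Fdps and Insig1 were all listed there with lower detection, 3 of the 7 listed members, beside 52.0% of all symbols. The median was -24.5 points over the 3 entries and -47.2 points over all 2072 entries of the cluster, of which 41 were higher. The median entry of cluster 4 was detected in 10.8% of its cells against 63.0% of others. The cluster was led by Cd36, a fatty acid transporter (69.0% against 25.3%), and 7 of the 10 adipocyte markers were detected in more of its cells. The low detection of the 3 members there moved with low detection of most listed genes, and its part in the result was not tested. Cluster 10 had the same feature, with 717 of 718 entries lower, and none of the members was listed there.

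In the other clusters the members were few. Idi1 and Fdps were listed higher in cluster 6, led by the proliferation gene Mki67 (92.0% against 17.4%), beside 27.1% of all symbols, and all 8 proliferation markers were detected in more of its cells. In clusters 5 and 9, where each listed proliferation marker (7 and 6 of them) was also detected in more cells, no member entry differed by more than 5.7 points. These were Hmgcs1 in cluster 5, lower, beside 3.74% of symbols, and in cluster 9 Hmgcs1, higher, beside 22.3%, and Insig1, lower, beside 1.77%. Sqle and Fdps shared cluster 7, led by Agt (angiotensinogen) and Ogn (the matrix proteoglycan osteoglycin), beside 11.6% of symbols listed higher. Fdps was lower in cluster 8, which Cd36 also led (87.7% against 25.8%), beside 16.6% listed lower there. Idi1 in cluster 2 stood beside 14.3% and Cyp51 in cluster 0 beside 13.9% of symbols listed higher. The 5 immune, 4 endothelial and 4 glial markers looked up had no entry in any cluster, and the study removed such cells before clustering.

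A wider list of 40 other genes of cholesterol synthesis, regulation, uptake, transport and storage was looked up in the same way. Of these, 17 had an entry and 23 had none. The 17 genes had 50 entries, 31 with higher and 19 with lower detection, beside 54.0% higher and 45.9% lower over all 13337 entries.

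In cluster 11 this list had 12 entries, 10 higher and 2 lower, beside 37.9% of all symbols listed higher there and 25.8% listed lower, with a median difference of 36.9 points. Acat2, which condenses acetyl-CoA at the head of the pathway, was found in 69.8% against 22.3%. Acat1, its mitochondrial relative, was detected in 92.8% against 54.4%, and Pmvk, a kinase of the mevalonate branch, in 62.6% against 25.4%. Nsdhl, which acts after Cyp51, was detected in 59.4% against 18.8%. Acat2 acts just before Hmgcs1, and Pmvk acts between Hmgcs1 and Idi1, so the listed steps detected in more cells of cluster 11 came from its early part and from Nsdhl near its end, whereas Fdft1 in the middle was not higher.

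The regulators of the pathway differed from each other in detection. Srebf1, whose product chiefly drives fatty acid synthesis genes, was detected in 87.9% of cluster 11 cells against 24.1%, the largest positive difference in the wider list at 63.8 points. Srebf2, whose product chiefly drives cholesterol genes, was listed in the same cluster with 39.2% against 39.1%. With percentages this close, Srebf2 was listed for a difference in mean level, whose direction is not given here. Nr1h3, the sterol-sensing nuclear receptor LXR alpha, was detected in 54.7% of cluster 11 against 8.70% and in 28.2% of cluster 8 against 8.20%. Srebf1 was also listed in cluster 4, in 8.80% against 26.8%, so it was higher in cluster 11 and lower in cluster 4 like Hmgcs1 and Insig1. The lower direction in cluster 4 was that of 2028 of its 2072 entries, so sharing it sets these genes apart from few others.

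The uptake receptors with an entry were Scarb1, Vldlr and Lrp1. Scarb1, the HDL receptor SR-BI, had 1 entry, in cluster 11, with 46.6% against 10%. Vldlr, which binds triglyceride-rich lipoproteins, had 10 entries, 4 higher and 6 lower, and none in cluster 11. It was detected in 80.1% of cluster 2 against 39.8%, in 76.9% of cluster 8 against 42.6% and in 73.0% of cluster 6 against 42.4%. Its largest difference was in cluster 10, with 3.60% against 46.0%, and it was also lower in cluster 4 (17.5% against 47.5%), cluster 7 (18.5% against 46.5%) and cluster 3 (27.8% against 46.6%). In clusters 0, 5 and 9 it differed by at most 3.60 points in size. Clusters 2 and 6 were also 2 of the 3 clusters in which Idi1 was higher. Sqle and Fdps were higher in cluster 7, and Fdps was also higher in cluster 6, by 1.8 points. Lrp1, a receptor for remnant lipoproteins, was detected in most cells, and its largest difference was in cluster 10, with 25.6% against 91.6%. In cluster 11 Lrp1 was detected in 85.1% against 89.6%.

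Among genes of transport, export and storage, Npc2, which moves cholesterol out of lysosomes, was detected in at least 91.7% of cells inside and outside its 4 clusters, with differences of 6.5 to 7.5 points. Abcg1, a cholesterol exporter, was detected in 43.3% of cluster 11 against 6.70%. Abca1, another exporter, had no entry in cluster 11 and its largest positive difference in cluster 2, with 84.6% against 45.6%. Soat1, which esterifies cholesterol for storage, was detected in 22.5% of cluster 11 against 52.3% and in 5.30% of cluster 4 against 56.7%. It was thus lower in cluster 11, where Hmgcs1, Idi1 and Insig1 were higher. Apoe had 8 entries, from 35.3% against 81.0% in cluster 10 to 96.1% against 76.8% in cluster 1. Lbr and Ebp, enzymes of the later sterol steps, were each listed in cluster 6, Lbr with 69.3% against 22.0% and Ebp with 54.3% against 50.6%. Lbr is also a protein of the nuclear envelope.

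**Figure D3:**
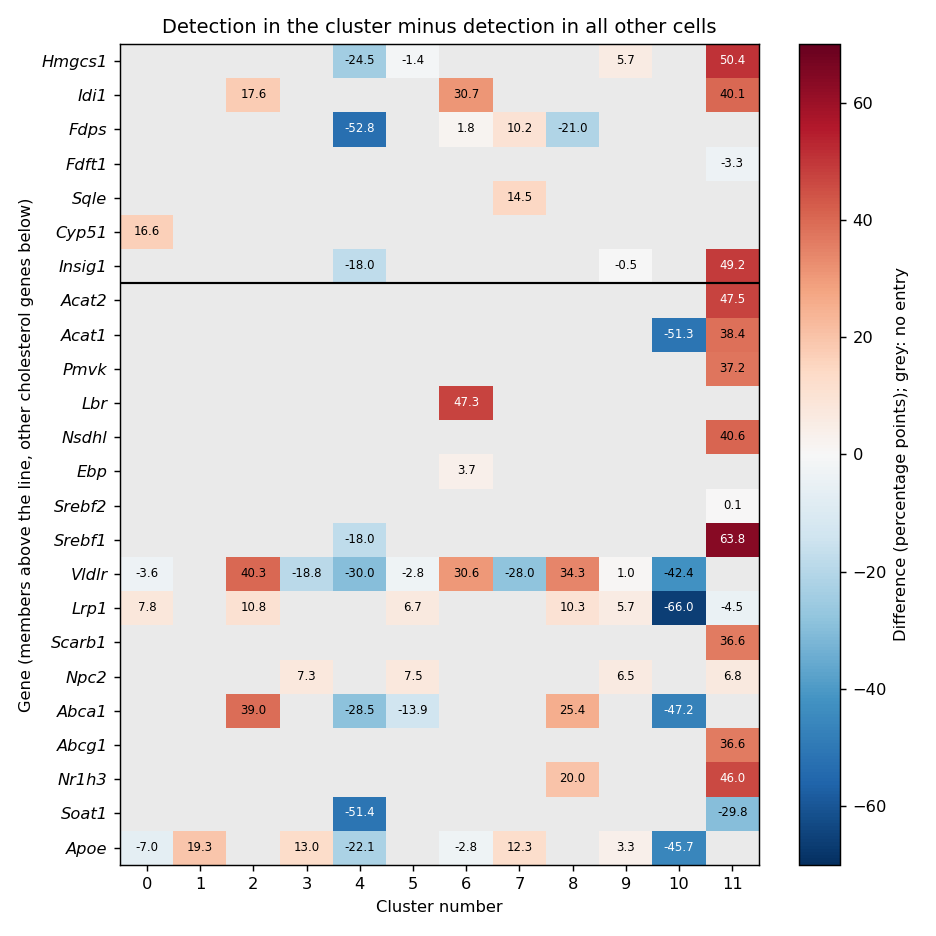
Difference in detection for the 7 listed members (above the line) and the 17 other cholesterol genes with an entry (below it) in each of the 12 clusters. Each number is the percentage of cells with the gene detected in the cluster minus that in all other cells, in percentage points, and grey marks a gene with no entry. The column of cluster 11 holds 4 member entries, 3 of them higher, and 12 others, 10 of them higher, and the columns of clusters 4 and 10 hold lower values only.

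Fatty acid synthesis draws on the same acetyl-CoA, and SREBPs activate its genes too. Of 14 genes looked up, 10 had an entry, and all 10 were listed in cluster 11, 8 higher and 2 lower, beside the same 37.9% and 25.8% of all symbols, with a median difference of 38.8 points. The largest were Acaca, acetyl-CoA carboxylase (93.2% against 31.4%), Fasn, fatty acid synthase (93.0% against 38.2%), and Thrsp, a lipogenic regulator (54.7% against 5.20%). In cluster 4 the list had 5 entries, 2 higher and 3 lower. The 3 member entries there were all lower, as were 2028 of the 2072 entries of that cluster. Scd1, stearoyl-CoA desaturase, was detected in 97.7% of cluster 4 against 61.7%, and was among the 41 higher entries of that cluster.

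**Figure D4:**
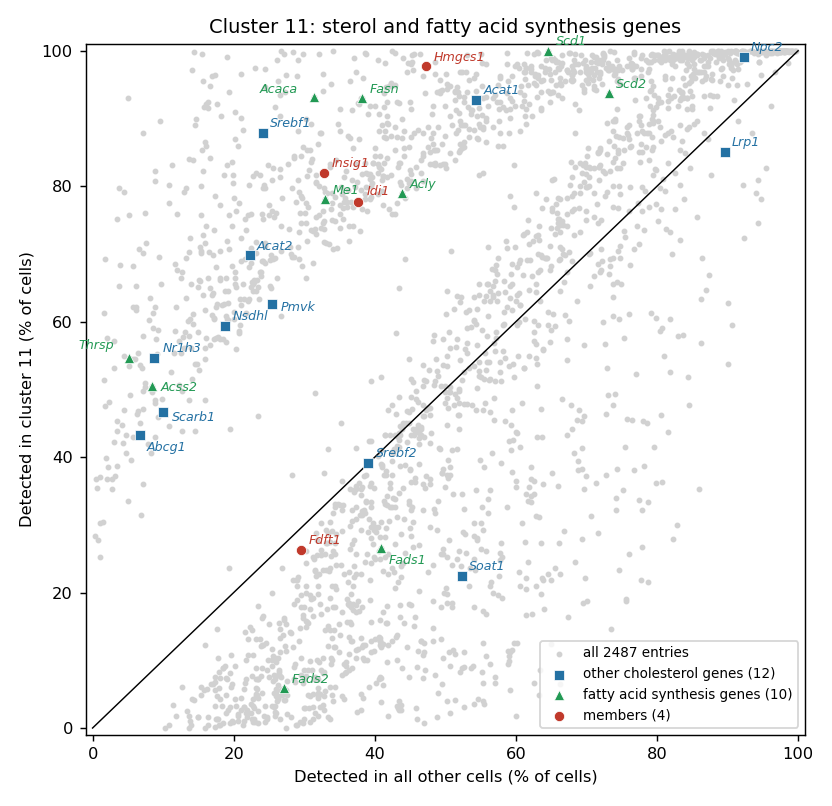
Detection in cluster 11 (y axis, percent of its cells) against detection in all other cells (x axis, percent), with grey points for all 2487 entries of the cluster and the diagonal marking equal detection. Of the members, Hmgcs1, Insig1 and Idi1 lie well above the diagonal and Fdft1 just below it, while Acaca, Fasn and Srebf1 lie higher than Insig1.

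The genes closest to a member were those with the smallest mean absolute gap between their difference in detection and the member's, over the clusters in which the member was listed. This measure could be used for the 4 members with at least 3 entries and was chosen after the values had been seen. For Hmgcs1, over 4 clusters and among 330 genes, the closest were Pnpla8 (2.83 points), Trp53inp2 (2.90 points) and Hadh (3.0 points). For Insig1, over 3 clusters and among 435 genes, they were Fasn (2.13 points), Ivns1abp (2.67 points) and Pnpla8 (2.80 points). For Idi1, over 3 clusters and among 515 genes, they were Nrip1 (2.63 points), Nampt (3.27 points) and Ctsc (3.60 points). For Fdps, over 4 clusters and among 170 genes, they were Vcl (3.33 points), Fat1 (3.90 points) and Oxct1 (4.10 points).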

How the data were processed

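Single-cell RNA-seq libraries were made with droplet 3′ chemistry from 8 samples in 4 groups of 2, taken from the sample labels. Per the study's methods, reads were mapped to mm10 with Cell Ranger 6.0.0, captures were aggregated, immune, glial and endothelial cells were removed, and clusters were compared in Seurat with MAST. Removal of doublets is not described, and doublets were not looked for. The authors deposited 1 table with, for each listed gene and cluster, the fraction of the cluster's cells in which it was detected and the same fraction of the cells outside, rounded to 3 decimals and printed here as percents. Its fold changes, p-values and adjusted p-values are the authors' own comparisons over single cells and were not used. Cells of all samples were pooled, so DKO was not compared with WT nor day 6 with day 0, and depth, cell numbers and counting error are unknown. A spreadsheet program had turned 7 symbols into dates, none of them described here.

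Differences, odds ratios and counts were computed in Python 3.11.15 with numpy 2.4.6, pandas 2.3.3 and scipy 1.17.1, and figures with matplotlib 3.10.9. Because detection over all cells is the share-weighted mean of both fractions whichever cluster it is computed from, the cluster shares were solved by least squares over the 10 genes listed in every cluster, and their sum was 99.9%. The solver was tested on simulated data. Detection over all cells then differed between the entries of 1 gene by at most 0.130 points. The members, gene lists and motifs were chosen with earlier results of these data known. Named were all members, each listed gene of the wider cholesterol list, at most 3 genes of the other lists per cluster, the leading genes of a cluster, and the 3 genes closest to a member. Positions come from GENCODE and promoters from RefSeq (GRCm38.p6), searched on both strands for 4 motifs. Alternatives varied the reference cells, the minimum difference, the clusters included, the genes behind the shares and the strand searched.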

Additional observations from a re-analysis of the deposited data

How the results depend on the processing

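The number of member entries with lower detection fell from 7 to 4 when a difference of at least 5 percentage points was asked for. It was 4 at a minimum of 10 points. In both cases these were Hmgcs1, Fdps and Insig1 in cluster 4 and Fdps in cluster 8. It was also 4 when clusters 4 and 10, in which most listed genes were detected in fewer cells, were left out. Of those 4, only Fdps in cluster 8 was the same. The others were Hmgcs1 in cluster 5, Insig1 in cluster 9 and Fdft1 in cluster 11, at -1.4, -0.5 and -3.3 points. The same counts over all entries are not given here. The number with higher detection was 10, and 9, 8 and 10 under the same changes. The number of member promoters with CCAAT fell from 5 to 1, the Cyp51 window, when only the strand of the gene was searched. On that strand 21.1% of all promoter windows held CCAAT, so 1 of 5 was close to the share over all windows. The other 48 recomputed values stayed within their tolerance, but many of them could not have left it. A difference taken against all cells always keeps its sign. It also changes little, as the largest cluster held 14.3% of the cells. Sqle and Cyp51 had 1 entry each, so the cluster with their highest detection could not change. Clusters 4 and 10 held no member entry with higher detection, so leaving them out could not change that count. The planned measure of likeness, a correlation over at least 6 shared clusters other than 4 and 10, and both of its alternatives could not be run, because no member was listed in that many. No paired analysis was possible because the pooled table has no value per sample, and for the same reason no replicate could be left out. Depth and cell numbers are unknown, so how far small differences lie from counting error is unknown.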
